A study of Mus musculus with 18 samples.

Results

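Alternative first exons were the 28494 first exons, of 34790 listed in all, whose mouse gene number carried at least 2 of them over the 18 libraries. They belonged to 8122 of 13589 gene numbers. The libraries were RNA-seq of peritoneal macrophages, which were elicited with thioglycolate, from mice of 3 genotypes on a C57BL/6 background. TLR4-WT mice carried the unchanged receptor, and TLR4-K730R and TLR4-K810R mice carried a knock-in that replaces 1 lysine of the TLR4 TIR domain, the intracellular part that recruits adaptors, with arginine. Cells were mock-treated (labelled control) or given LPS, the bacterial lipid that TLR4 senses, at 100 ng/ml for 6 h, and each of the 6 groups had 3 libraries. The labels give neither the age of the mice nor whether the 3 libraries came from separate animals, so p-values measure the spread between these libraries, which may be technical. The comparisons ask whether LPS changed which first exon a gene used, and whether either receptor mutation did.

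Many genes have more than one promoter. Each promoter gives a transcript with its own first exon, joined by splicing to exons that the transcripts share, and the choice can alter the N-terminus of the protein, the leader that ribosomes scan, or only the signals to which the gene responds. In macrophages, Toll-like receptor signals activate NF-κB, AP-1 and interferon regulatory factors, and these act at some promoters of a gene and not at others. In these files every first exon had a splice donor of its own, so a pair of first exons could begin at the same base and differ only in where the first intron starts.

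The value listed for a first exon was an FPKM, fragments per length of transcript and per size of library. The measure used below is the share, the FPKM of a first exon as a percent of the summed first-exon FPKM of its gene in the same library, which does not move when the whole gene rises or falls. A first exon with no row in a library had a share of 0. No read counts were used here, so the depth behind a share is unknown and no counting interval can be given, and a share of 0 can be a failed estimate. Between 19654 and 22109 first exons were listed per library, 13758 were listed in all 18 and 6309 in only 1. All genes named below are placed on GRCm38, and first exons are numbered from the 5′ end of the gene.

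Of the 8122 genes, 3106 had 2 first exons, 2009 had 3, 1238 had 4 and 1769 had 5 or more. The largest number was 24. Some gene numbers also collected the first exons of a neighbour, and 3009 first exons, with 8.74% of the FPKM, lay outside the span or off the strand of the gene they were listed under and were set aside. Among the rest, 86.8% had a splice donor that the annotation gives for a first exon of that gene. At a summed level of at least 1 FPKM in all 18 libraries there were 16687 first exons of 4632 genes. Most of these genes leaned on 1 first exon. The leading first exon held 90% or more of the gene in 2833 genes (61.2%) and less than 50% in 204 genes (4.4%), and in mock-treated cells it had the most 5′ start of its gene in 3546 genes (76.6%). The leading first exon differed between the mock and the LPS libraries in 206 genes (4.4%).

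Tlr4 itself had 2 first exons, and the leading one held 99.5 to 100% in each library. Shares from 10 to 90% in enough libraries to be tested were found for 5513 first exons of 2412 genes. The spread between libraries of a group was wide. The median SD within a group was 8.34 percentage points, and in 603 of the 2412 genes a library lay 50 points or more from both others of its group while the gene's summed level was within 2-fold. Each library stood apart in this way for 47 to 81 genes, so the behaviour was shared by all 18. Of 5 listed marker genes of macrophages, 3 had a first exon (Itgam and Cd68 had none). These summed to 10930 to 13950 FPKM in mock and to 6470 to 9349 FPKM in LPS libraries. The 4 markers of neutrophils summed to at most 0.792 FPKM in mock and to 3.45 to 6.41 FPKM in LPS libraries, and this held in each genotype. Those of T cells summed to at most 0.958 FPKM and those of B cells to at most 3.66 FPKM. Markers of mesothelium and fibroblasts summed to 11.4 to 24.6 FPKM in mock-treated TLR4-WT and to 52.8 to 137.2 FPKM in mock-treated TLR4-K810R libraries, and markers of lung epithelium reached 33.7 FPKM in a TLR4-K810R library with LPS. In mock-treated cells, markers of intestinal epithelium reached 0.238 FPKM for TLR4-WT, against 5.0 to 10.3 FPKM for TLR4-K730R and 4.63 to 14.4 FPKM for TLR4-K810R, and those of mast cells lay at 4.07 to 4.28 FPKM for TLR4-WT and reached 1.45 and 1.77 FPKM for the mutants. Their part in the results below was not tested.

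The stretches upstream of first exons are shown for 4 genes that the results return to. For Gbp3 and Mitf only that of the upstream first exon is shown, so it cannot be compared with that of its competitor. Tank and Gbp3 are shown because their upstream first exon gained share with LPS, Mitf because its upstream first exon lost share, and Il1rn because its libraries split. Each is the 250 bases before a RefSeq transcript start on GRCm38.p6 that lies within 50 bases of the start in the files, on the plus strand. Capitals mark matches, on either strand, to the TATA box spelled as TATAAA, to a κB motif spelled as GGNNTTTCC and to the core of the interferon response element spelled as GAAANNGAA. They also mark the AP-1 motif, which was searched with the letters TGAGTCA, the GC box, for which the letters searched were GGGCGG, and the CCAAT box, which was searched by the letters of its name.
Tank, first exon 1, chr2:61578336-61578585: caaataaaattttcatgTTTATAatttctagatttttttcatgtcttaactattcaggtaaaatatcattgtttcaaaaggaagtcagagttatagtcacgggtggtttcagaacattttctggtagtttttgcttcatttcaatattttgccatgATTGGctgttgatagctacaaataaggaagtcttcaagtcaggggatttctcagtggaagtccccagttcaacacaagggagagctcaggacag
Tank, first exon 2, chr2:61592847-61593096: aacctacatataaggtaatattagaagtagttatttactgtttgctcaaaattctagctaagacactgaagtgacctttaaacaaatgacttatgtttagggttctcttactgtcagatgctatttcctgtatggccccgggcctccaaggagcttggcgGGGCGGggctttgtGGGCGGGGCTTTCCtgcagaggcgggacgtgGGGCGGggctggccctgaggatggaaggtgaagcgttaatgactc
Gbp3, first exon 1, chr3:142559794-142560043: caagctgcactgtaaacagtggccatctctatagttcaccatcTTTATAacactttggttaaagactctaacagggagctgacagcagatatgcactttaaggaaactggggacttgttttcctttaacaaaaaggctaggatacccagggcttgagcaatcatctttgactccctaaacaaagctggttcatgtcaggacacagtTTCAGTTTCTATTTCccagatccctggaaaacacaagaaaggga
Mitf, first exon 1, chr6:97806808-97807057: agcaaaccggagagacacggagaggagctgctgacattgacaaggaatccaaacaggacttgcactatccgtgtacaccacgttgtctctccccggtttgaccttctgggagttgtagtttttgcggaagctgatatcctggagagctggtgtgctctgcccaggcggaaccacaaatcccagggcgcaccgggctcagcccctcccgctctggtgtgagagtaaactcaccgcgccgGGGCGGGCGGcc
Il1rn, first exon 1, chr2:24336610-24336859: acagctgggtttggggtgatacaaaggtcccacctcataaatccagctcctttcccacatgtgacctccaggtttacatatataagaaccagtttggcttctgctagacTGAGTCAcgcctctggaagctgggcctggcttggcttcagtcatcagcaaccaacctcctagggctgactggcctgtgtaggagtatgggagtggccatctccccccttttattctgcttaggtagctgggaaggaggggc
Il1rn, first exons 2 and 3, chr2:24345041-24345290: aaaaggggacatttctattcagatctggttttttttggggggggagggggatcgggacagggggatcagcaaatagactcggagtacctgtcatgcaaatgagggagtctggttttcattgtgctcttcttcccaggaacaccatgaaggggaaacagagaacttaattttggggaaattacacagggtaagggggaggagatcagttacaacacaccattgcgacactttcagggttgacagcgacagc
The stretch before first exon 2 of Tank held a κB motif that overlapped a GC box, and the one before first exon 1 held neither. The stretch before Gbp3 held a pair of overlapping interferon response cores.

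LPS changed the use of first exons in a small part of these genes. In limma with Benjamini-Hochberg adjustment over the 5513 first exons and the LPS effect averaged over the 3 genotypes, 166 first exons (3.01% of those tested) of 109 genes passed an adjusted p of 0.01, and are called below. These genes made up 4.52% of the 2412 tested. The share rose for 87 first exons and fell for 79. Of the 87, 15 (17.2%) were at 0 in all mock libraries, and of the 79, 7 (8.9%) were at 0 in all LPS libraries. Among all tested first exons, 0.7% were at 0 in all mock and 0.7% in all LPS libraries. Such exons were tested only because their share was high enough in the other treatment, so these calls are in part set by that selection. The median absolute difference in share was 27.0 percentage points for the called first exons and 5.29 points for all tested. In 33 of the 109 genes the leading first exon differed between the mock and the LPS libraries. For 86 of the called first exons, the 9 LPS libraries all lay on one side of the 9 mock libraries, as they did for 114 (2.07%) of all tested. Where a gene had only 2 first exons in all, their shares mirror each other and count as 1 result.

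**Figure D1:**
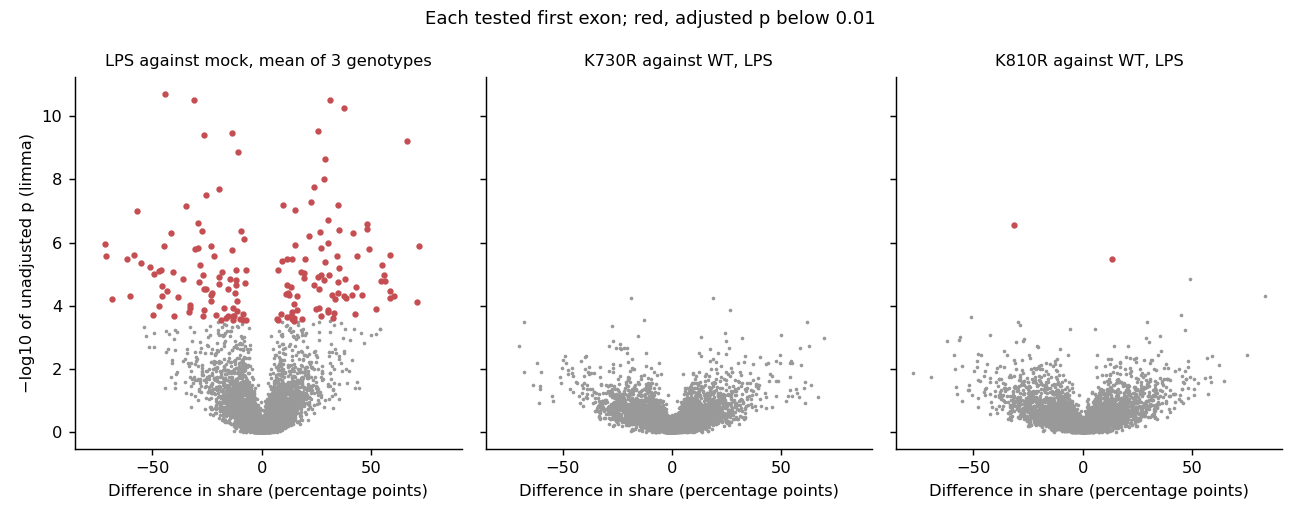
Difference in mean share in percentage points against −log10 of the unadjusted p of limma, 1 point for each of 5513 first exons, for LPS against mock and for each mutant against TLR4-WT with LPS. Red points passed an adjusted p of 0.01. LPS gave 166 red points, TLR4-K730R 0 and TLR4-K810R 2.

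The called genes differed from all tested genes in several features, given here as a description. The first exon with the largest gain started downstream of the one with the largest loss in 64 of the 109 genes (58.7%), against 931 (45.0%) of the 2067 tested genes that had both a gain and a loss. It started upstream in 42 of the 109 and in 857 of the 2067. The pair shared a start, and so counted as neither, in 3 of the 109 and in 279 of the 2067. The starts of the pair lay a median of 12958 bases apart, against 1405 in all, and within 100 bases in 6.4% against 24.4%. In 58 of the 109 genes the gaining first exon was higher in mean FPKM with LPS while the losing one was lower, in 25 both were higher and in 26 both were lower. These are 53.2, 22.9 and 23.9% of the called genes, against 38.5, 16.2 and 45.2% of all. The gaining first exon was annotated in 76.1% of called genes and in 94.2% of all, while the losing one was annotated in 89.9% and 94.0%. The summed first-exon level was higher with LPS in 55 of the 109 called genes (50.5%), against 30.5% of all.

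Among called genes whose mock and LPS libraries did not overlap, the largest difference after that of Cybb, described below, was in Zfp385a, which encodes a zinc-finger protein that binds RNA and p53. First exon 4 (chr15:103323391-103323510, minus strand) lies 16583 bases downstream of the first. It held 2.41, 6.92 and 5.26% in mock-treated TLR4-WT libraries and 73.9, 61.8 and 81.2% with LPS. In TLR4-K730R it went from 8.37, 7.59 and 2.71% to 78.2, 75.5 and 60.9%, and in TLR4-K810R from 2.30, 6.44 and 2.07% to 66.7, 62.1 and 81.8%. The groups did not overlap in any genotype, and the difference was 66.5 points, or 5.49 ± 0.40 (SE) in log2 odds, with an adjusted p of 4.14e-07 (limma). The gene's summed level stayed between 13.9 and 24.4 FPKM, while first exon 4 went from 1.08 ± 0.45 to 12.8 ± 1.3 FPKM (SD, n = 3) in TLR4-WT and first exon 1 from 14.9 ± 3.9 to 4.32 ± 2.5 FPKM.

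**Figure D2:**
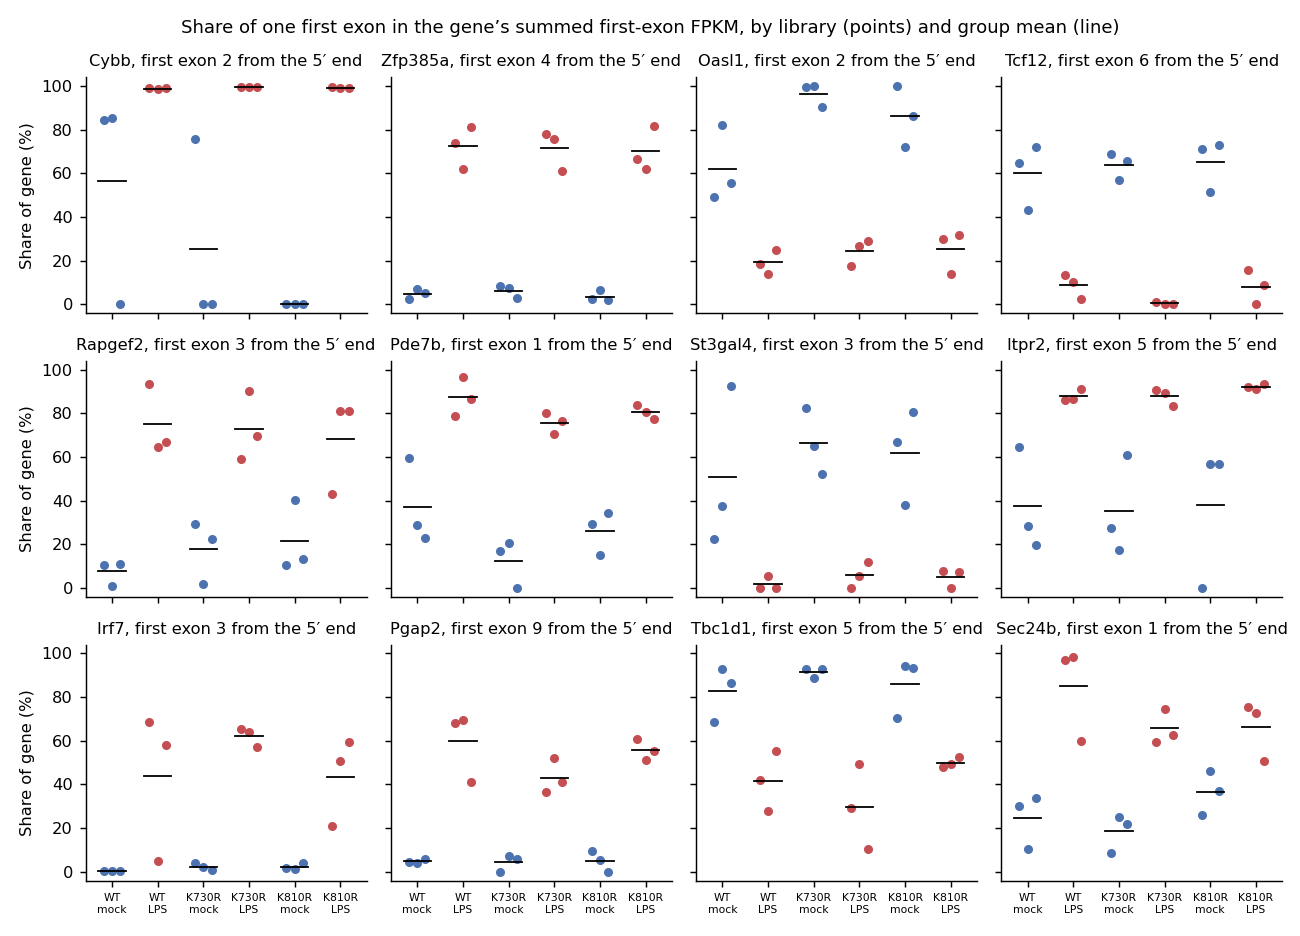
Share in percent of 1 first exon in each of the 12 genes with the largest differences among called genes of at least 5 FPKM whose 9 LPS and 9 mock libraries did not overlap, by library (points, blue mock and red LPS) and group (line, mean of 3). As examples, the shares of mock against LPS libraries are 2.07–8.37% against 60.9–81.8% in Zfp385a and 0.168–4.02% against 5.19–68.4% in Irf7.

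Rapgef2, an exchange factor for Rap, moved to first exon 3 (chr3:79173155-79173300), whose share was 0.939 to 40.2% in mock and 42.9 to 93.4% in LPS libraries, a difference of 56.4 points. Tcf12, a helix-loop-helix transcription factor, lost share on the sixth of its 7 first exons (chr9:71895930-71896396), which starts 215475 bases from the first. That exon held 43.3 to 72.8% in mock and 0 to 15.6% in LPS libraries, and its level went from 11 ± 0.95 to 0.463 ± 0.28 FPKM (SD, n = 3) in TLR4-WT, while first exon 1 stood at 6.13 ± 3.5 and 4.84 ± 0.58 FPKM. The other Tcf12 first exon that was tested rose in share by 54.7 points.

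Pde7b, a cyclic AMP phosphodiesterase, and St3gal4, a sialyltransferase, also moved to their most upstream first exons. The share of the Pde7b exon was 0 to 59.5% in mock and 70.5 to 96.6% in LPS libraries. In St3gal4, the downstream exon fell from 22.7–92.4% to 0.143–12.1%, with a summed level of 13.3 to 23.2 FPKM over all libraries. Sec24b, a subunit of the COPII coat, did likewise, with its upstream exon rising by 45.7 points. Tbc1d1, a Rab GTPase-activating protein, moved upstream too, as its downstream exon fell from 68.7–94.2% to 10.3–55.3%. Pgap2, which acts on GPI anchors, moved to a downstream exon, from 0–9.46% to 36.3–69.6%. The summed level of Pgap2 went from 18.7–39.0 to 61.6–115 FPKM.

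In Itpr2, an inositol trisphosphate receptor, and Cybb, the catalytic subunit of the phagocyte NADPH oxidase, the gaining exon was one that the annotation does not list. The Itpr2 exon (chr6:146113125-146113270) starts 388908 bases from the first exon, and its share was 0 to 64.6% in mock and 83.5 to 93.5% in LPS libraries. It went from 1.73 ± 1.0 to 18.7 ± 4.0 FPKM in TLR4-WT, while the annotated upstream exon stood at 3.01 ± 1.4 and 2.43 ± 0.14 FPKM. Its adjusted p of 0.00529 (limma) rose to between 0.0101 and 0.0145 when any 1 of 13 libraries was left out, and the call was also lost with an offset of 0.001 on the share (0.0256) and without a filter on the share (0.0159). In Cybb the exon starts upstream of the annotated one. It held 98.4 to 99.5% in all LPS libraries. Mock libraries split, with 84.6, 85.2 and 0% in TLR4-WT, 75.7, 0 and 0% in TLR4-K730R and 0% in all 3 of TLR4-K810R. The 3 mock libraries with the upstream exon and the 6 without it were of the same treatment, so the Cybb difference of 71.8 points averages values at opposite ends of the scale.

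Among Toll-like receptor and NF-κB genes, 13 of 54 listed genes were tested and 2 (15.4%) were called, Tank and Tnip1, against 4.52% of all tested genes. Both encode proteins that restrain NF-κB signalling, TANK as a TRAF-binding adaptor and TNIP1 (ABIN-1) as a ubiquitin-binding partner of A20. First exon 2 of Tank, downstream of the κB motif shown above, held 21.6, 23.8 and 44.8% in mock-treated TLR4-WT and 5.79, 6.84 and 4.10% with LPS. It went from 50.3, 35.9 and 27.9% to 11.3, 3.20 and 5.44% for TLR4-K730R and from 35.8, 55.0 and 43.2% to 7.45, 11.7 and 6.40% for TLR4-K810R. No LPS library reached any mock library, and the difference was −30.7 points (adjusted p of 0.000209, limma). The upstream exon went from 8.51 ± 3.9 to 34.6 ± 5.1 FPKM in TLR4-WT (SD, n = 3), and first exon 2 stood at 3.60 ± 1.5 and 2.06 ± 0.56 FPKM.

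Tnip1 followed the same form. Its upstream first exon (chr11:54962833-54962917, minus strand) held 41.3 to 86.8% in mock and 95.6 to 97.7% in LPS libraries, a difference of 30.4 points with an adjusted p of 5.21e-05 (limma). In TLR4-WT this exon went from 19.9 ± 2.2 to 185 ± 23 FPKM, and first exon 2, 6795 bases downstream, stood at 11 ± 2.7 and 6.00 ± 2.7 FPKM. The other 11 tested genes of the list, among them Tirap, Irak3, Ikbkg and Nfkbiz, were not called.

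**Figure D3:**
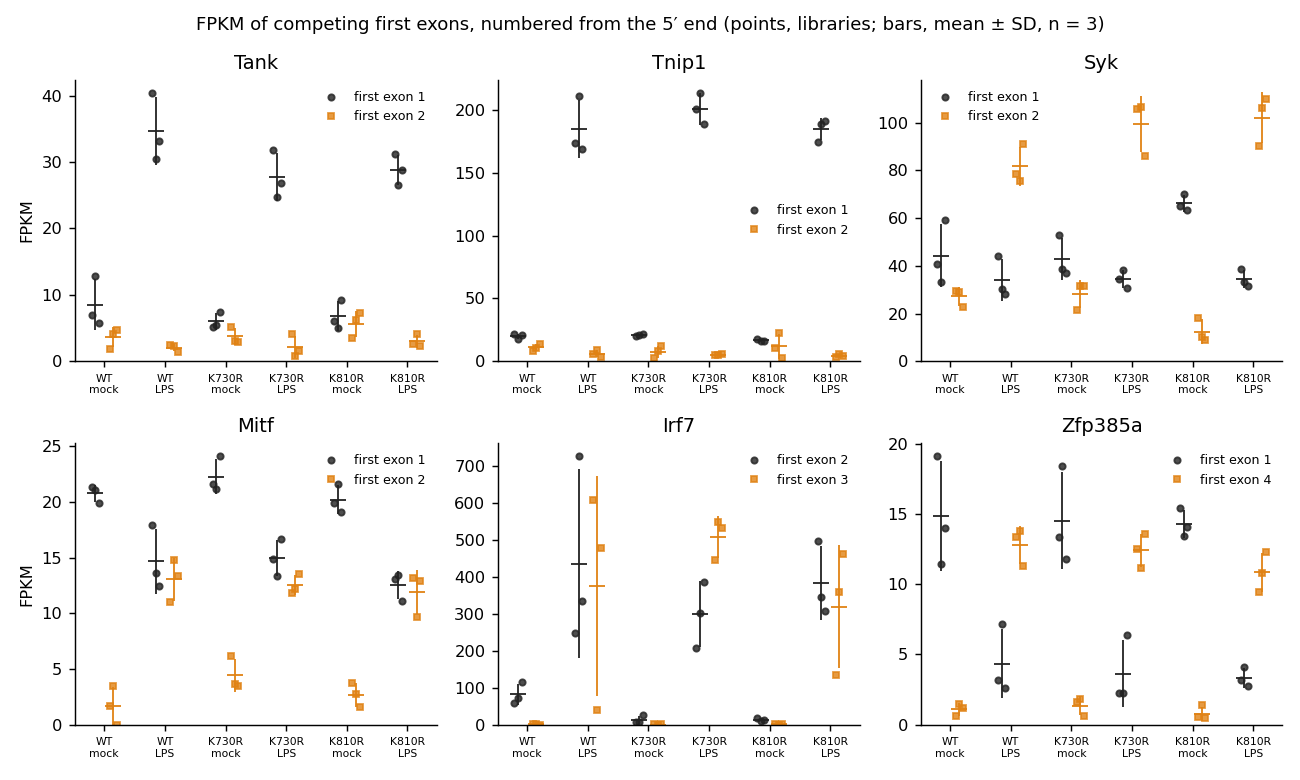
FPKM of competing first exons of 6 genes in each library (points) with the mean ± SD of 3, numbered from the 5′ end. With LPS the upstream exon of Tank and Tnip1 and the downstream exon of Syk, Mitf, Irf7 and Zfp385a had a higher mean FPKM in all 3 genotypes.

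Syk, the kinase downstream of Fc receptors and C-type lectins, was outside the rule for named genes and was chosen after its values were seen. Its 2 first exons start 13680 bases apart. The downstream one (chr13:52596853-52597054) held 42.1, 46.7 and 27.8% in mock-treated TLR4-WT and 64.0, 71.5 and 76.5% with LPS, 28.9, 45.0 and 46.1% against 75.5, 73.6 and 73.7% in TLR4-K730R, and 21.9, 12.8 and 12.2% against 69.9, 76.2 and 77.8% in TLR4-K810R. All LPS libraries lay above all mock libraries, with a difference of 41.7 points and an adjusted p of 9.17e-05 (limma). The mock TLR4-K810R libraries lay below those of TLR4-WT without overlap, as in 9.43% of all tested first exons, and that difference was not called (adjusted p of 0.841, limma).

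Among interferon genes, 11 of 53 listed genes were tested and 3 (27.3%) were called, Irf7, Oasl1 and Gbp3, against 4.52% of all tested genes. Irf7, the transcription factor that amplifies type I interferon, went from 6.86–117 to 649–930 FPKM in sum. First exon 3 (chr7:141265075-141265292, minus strand), 1189 bases downstream of the other 2, which share a start, held 0.443, 0.360 and 0.168% in mock-treated TLR4-WT and 68.4, 5.19 and 58.2% with LPS. It held 0.879 to 3.99% against 57.2 to 65.5% for TLR4-K730R and 1.41 to 4.02% against 20.9 to 59.2% for TLR4-K810R. The groups did not overlap, although 1 LPS library of TLR4-WT stood just above the mock libraries, and the adjusted p was 6.21e-05 (limma).

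The first exons of Oasl1, an oligoadenylate synthetase-like protein that restrains Irf7 translation, start 24 bases apart, so the exchange was one of splice donors. The one with the upstream donor held 0 to 50.7% in mock and 68.3 to 86.0% in LPS libraries. The Oasl1 mock shares were 50.7, 18.1 and 44.6% for TLR4-WT, 0.733, 0.161 and 9.69% for TLR4-K730R and 0, 28.0 and 13.8% for TLR4-K810R. Those of TLR4-K730R lay below TLR4-WT without overlap, as in 9.5% of all tested first exons, and neither mutant was called against TLR4-WT (adjusted p of 0.417 and 0.894, limma). In Gbp3, a guanylate-binding GTPase of cell-autonomous defence, the first exon after the interferon response cores held 51.1, 53.4 and 55.4% in mock-treated TLR4-WT, 0, 14.8 and 0% for TLR4-K730R and 6.11, 0 and 84.4% for TLR4-K810R. With LPS it held 88.7 to 98.5% in 8 libraries and 33.8% in the second of TLR4-K810R. The summed level of Gbp3 was only 1.78 to 7.97 FPKM in mock against 70.0 to 179 FPKM in LPS libraries, so its mock shares rest on low values. In mock-treated cells the summed levels of Oasl1 were 26.4 ± 0.94 FPKM in TLR4-WT libraries (SD, n = 3), against 10.8 ± 1.1 for K730R and 5.01 ± 0.96 for K810R.

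Of 61 genes listed for alternative promoters, 26 were tested and 2 (7.7%) were called, Mitf and Tsc22d1, against 4.52% of all tested genes. The list was written from general knowledge, with earlier results of these data known. Mitf encodes a helix-loop-helix factor of lysosome genes and of osteoclasts, pigment cells and mast cells, and is a textbook case of several promoters. First exon 1, after the GC-rich stretch shown above, held 92.7, 86.0 and 100% in mock-treated TLR4-WT and 62.0, 47.5 and 47.8% with LPS. It went from 77.8, 85.4 and 87.3% to 55.2, 51.9 and 55.0% for TLR4-K730R and from 84.2, 88.8 and 92.4% to 49.7, 58.2 and 44.6% for TLR4-K810R. The fall of 35.9 points (adjusted p of 0.001, limma) was not called with a smaller offset of 0.001 on the share (0.0112) and was matched by an exon that the annotation does not list (chr6:97829287-97829533), 22235 bases downstream, which went from 1.70 ± 1.7 to 13.0 ± 1.9 FPKM in TLR4-WT.

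Tsc22d1, a leucine-zipper protein with a long and a short form, shifted to the first exon of its short form. That first exon (chr14:76504478-76504841) held 24.8 to 49.6% in mock and 63.3 to 92.2% in LPS libraries (adjusted p of 0.001, limma). Its own level in TLR4-WT was 3.52 ± 1.2 and 2.98 ± 1.2 FPKM, and the upstream exon with the largest loss went from 4.98 ± 1.0 to 0.269 ± 0.41 FPKM.

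Il1rn, the interleukin-1 receptor antagonist, uses an upstream first exon for an intracellular form and a downstream one for the secreted form. Its summed level went from 36.8–64.0 to 718–1745 FPKM. First exons 2 and 3 start 3 and 19 bases from the same RefSeq start, so both are downstream. A change in the share of first exon 3 therefore need not be an exchange of the intracellular and secreted forms. First exon 3 (chr2:24345310-24345571) held 4.53 to 10.2% in mock libraries. With LPS it held 17.5, 19.9 and 16.8% in TLR4-WT, 78.7, 20.9 and 17.8% for TLR4-K730R and 76.6, 78.0 and 19.2% for TLR4-K810R. The values fell into 2 bands, 1 of 16.8 to 20.9% and 1 of 76.6 to 78.7%, within both mutants, and the mean difference of 31.2 points missed the threshold (adjusted p of 0.0103, limma), which it passed without library 3 of TLR4-K730R with LPS (0.00775) or library 3 of TLR4-K810R with LPS (0.00141). Neither mutant differed from TLR4-WT in this by the test.

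Adar, which edits RNA, has a constitutive and an interferon-inducible promoter. The share of its downstream tested first exon (chr3:89730748-89730838), 15726 bases from the most upstream one, was 47.3 to 86.0% in mock and 55.6 to 92.0% in LPS libraries, and was not called (adjusted p of 0.333, limma). The most upstream first exon of Adar held 12.3 to 51.1% and 6.10 to 43.5% (adjusted p of 0.439, limma), while the summed level went from 10.3–17.2 to 31.5–42.2 FPKM. Ptpn6, the phosphatase SHP-1, held 4.88 to 54.5% on its upstream first exon in mock and 8.0 to 54.4% in LPS libraries (adjusted p of 0.614, limma). Runx1, Slc7a2 and Cd36 had more than 1 first exon but the leading one held at least 91.4% in each library, and Abcg1 had 1.

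**Figure D4:**
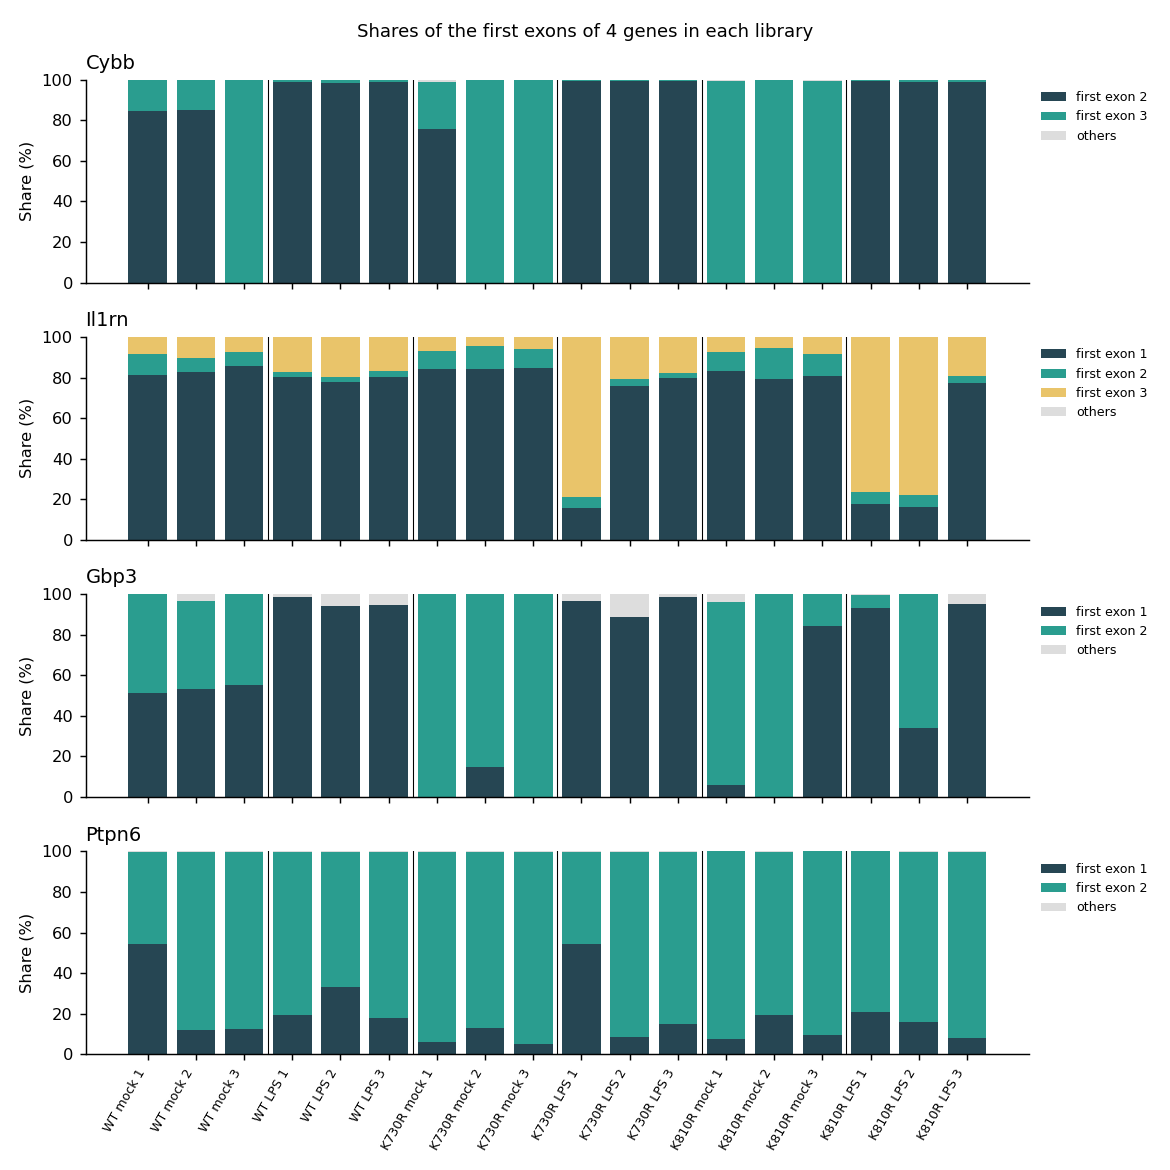
Shares in percent of the tested first exons of Cybb, Il1rn, Gbp3 and Ptpn6 in each of the 18 libraries, stacked to 100% with untested first exons in grey. Libraries of the same group split, as in Il1rn, where first exon 3 holds 78.7% in the first and 20.9% in the second LPS library of TLR4-K730R.

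The other lists gave 1 called gene in all, against 4.52% of all tested genes. None of 11 tested genes of the transcription machinery and none of 2 tested cytokine genes, of 45 listed, was called. Among 4 tested genes of macrophage identity, Spp1, which encodes osteopontin, was called, with first exon 3 falling from 2.50–27.2% to 0.211–3.67% (adjusted p of 0.00498, limma). That call was lost when any 1 of 10 libraries was left out (0.0104 to 0.0138), with an offset of 0.05 on the share (0.0117) and with the untransformed share (0.0422). Ly6e, an interferon-induced surface protein chosen after its values were seen, exchanged first exons whose starts lie 20 bases apart, from 0.164–17.8% to 19.1–44.9% for the one with the upstream donor.

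Within single genotypes the test called fewer genes. LPS against mock gave 17 genes in TLR4-WT, 17 for TLR4-K730R and 17 for TLR4-K810R, which is 0.705% of those tested in each. These comparisons share no libraries, but they come from a single fit with a common estimate of the spread for each first exon, so their calls are not independent. Of 32 genes called in at least 1 genotype, 11 were called in at least 2 and 8 in all 3. Of the 43 first exons called in at least 1 genotype, 41 had the same sign in all 3 genotypes. The same count was not made for all tested first exons, so the 41 have no background. The 43 were picked by their calls, and some were tested only because their share was high enough in 1 treatment. The count of 41 therefore cannot show agreement between genotypes. The 8 genes, named after their values were seen, were Acot7, Adck1, Lancl2, Mbnl1, Nfkbil1, Pqlc1, Rcl1 and Zfp385a.

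In 7 of these 8 genes the exon that was called was listed at 0 in nearly every library of one treatment. Such an exon reached the filter of a share of at least 10% in 3 libraries only through the other treatment, where it is high, so its difference is in part set by the filter and the count of these genes supports nothing. Without that filter the 8 genes were still called in all genotypes, but the shares are the same with and without it, so this cannot test its part. In Rcl1, which acts in ribosomal RNA processing, an exon that the annotation does not list (chr19:29126657-29126812) was at 0 in the 9 mock libraries and held 42.3, 44.1 and 29.1% in TLR4-WT, 33.4, 35.5 and 60.6% for TLR4-K730R and 46.5, 26.2 and 19.4% for TLR4-K810R with LPS. The annotated Rcl1 exon was higher with LPS as well, at 4.05 ± 0.40 in mock against 19.5 ± 4.2 FPKM in TLR4-WT. In Lancl2, a LanC-like protein, an exon 4879 bases downstream of the annotated one went from 0 to 19.7–36.8%. In Nfkbil1, an IκB-like protein, and Adck1, a mitochondrial kinase-like protein, unlisted exons went from 0 to 11.8–37.6% and from 0 to 11.5–59.0%. The opposite pattern was seen in Mbnl1, a splicing regulator, whose most upstream exon went from 6.39–15.1% to 0, and in Pqlc1, from 9.38–19.9% to 0. Acot7, an acyl-CoA thioesterase, lost an unlisted exon, from 6.27–29.9% to 0 in 8 LPS libraries and 3.68% in the other. The Acot7 call in TLR4-WT was lost when any 1 of its 6 libraries was left out (adjusted p of 0.0145 to 0.0244, limma), as was that of Adck1 for TLR4-K810R (0.0235 to 0.0477). With 1 library left out, Acot7 was also lost in 5 of 6 cases for TLR4-K730R (0.0241 to 0.0556) and in 5 of 6 for TLR4-K810R (0.0244 to 0.0352), Mbnl1 in 3 of 6 for TLR4-WT (0.0129 to 0.0218) and Adck1 in 2 of 6 for TLR4-K730R (0.0115 to 0.0122). Over 1 first exon of each of the 8 genes, the other calls within a genotype passed with any 1 library left out. With the compared groups alone, 23 of the 24 calls were lost (adjusted p of up to 0.105, limma), as were 21 with a pseudocount of 1, 17 with the untransformed share and 11 with an offset of 0.05.

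The receptor mutations changed few first exons by this test. The 4 comparisons of a mutant with TLR4-WT at a given treatment share the TLR4-WT libraries of that treatment. TLR4-K730R against TLR4-WT gave 1 gene in mock-treated cells (0.0415% of those tested) and 0 with LPS (0%). TLR4-K810R gave 0 genes in mock-treated cells (0%) and 2 with LPS (0.0829%). The comparisons with none called had 294 first exons (TLR4-K810R, mock) and 275 (TLR4-K730R, LPS) at an unadjusted p under 0.05, which is 5.33% and 4.99% of those tested. Set against the LPS response of TLR4-WT, that of either mutant differed in 0 genes (0%), with 252 (TLR4-K730R) and 290 (TLR4-K810R) first exons at an unadjusted p under 0.05.

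The gene called in mock-treated TLR4-K730R was Adgrl2, an adhesion receptor. First exon 2 (chr3:148988590-148989540) held 100, 82.2 and 75.2% in TLR4-WT and 0% in all 3 libraries of TLR4-K730R, at a summed level of only 1.12 to 5.04 FPKM over the mock libraries. With LPS the same exon held 55.4 to 63.2% in TLR4-WT and 65.4 to 90.4% in TLR4-K730R. The adjusted p of 0.00666 (limma) rose to between 0.0178 and 0.0535 without TLR4-WT mock library 1 or 2 or without any 1 of the 3 TLR4-K730R mock libraries.

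With LPS, TLR4-K810R differed in Ankrd28, a regulatory subunit of protein phosphatase 6, and Zfp637, a zinc-finger gene. First exon 4 of Ankrd28 (chr14:31780736-31781662), which the annotation does not list, was at 0 in all mock libraries. With LPS it held 33.2, 23.8 and 37.7% in TLR4-WT, 43.0, 48.2 and 68.9% in TLR4-K730R and 0% in the 3 libraries of TLR4-K810R, where the adjusted p against TLR4-WT was 0.00156 (limma). It passed the filter on the share only through the LPS libraries of TLR4-WT and TLR4-K730R, where it is high, so its difference is in part set by the filter. First exon 1 of Ankrd28 held 29.4 to 63.1% in those TLR4-K810R libraries and at most 0.271% in the LPS libraries of the other genotypes. The summed level over the LPS libraries was 2.37 to 4.86 FPKM, and the call was lost without library 1 or 3 of TLR4-K810R with LPS (adjusted p of 0.0118 and 0.0137, limma) and with the compared groups alone (0.0312). In Zfp637 an unlisted exon held 11.2, 17.0 and 11.6% in TLR4-K810R with LPS and 0% in every other library (adjusted p of 0.00938, limma). It was tested only because these 3 libraries passed the filter on the share, and the call was lost without any 1 of the 6 LPS libraries compared (0.0229 to 0.0579).

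Several exons with the smallest p in the comparisons without a call also had a group at 0. In mock-treated cells first exon 3 of Nfix, a nuclear factor I gene, held 70.9, 42.8 and 43.0% in the TLR4-K810R libraries, 29.7, 22.5 and 0% in those of TLR4-K730R and 0% in all of TLR4-WT, with an adjusted p of 0.08 for TLR4-K810R (limma). With LPS first exon 3 of Nudcd3, a dynein co-chaperone, held 11.5 to 15.2% in TLR4-WT and 0% in TLR4-K730R (adjusted p of 0.307, limma), and the unlisted exon of Ctu1, which modifies tRNA, held 18.9 ± 4.26% (SD, n = 3) in TLR4-WT and 0% in TLR4-K730R (adjusted p of 0.153, limma). Sharpin and Apba1 in mock-treated TLR4-K810R had adjusted p values of 0.117 and 0.228, and Cnot9 in TLR4-K730R with LPS had 0.26 (limma). For the difference between LPS responses, the smallest p values belonged to Adgrl2, Mpc1 and Stk11ip in TLR4-K730R (adjusted p of 0.106, 0.762 and 0.762, limma) and to Ankrd28, Sharpin and Zfp637 in TLR4-K810R (0.101, 0.112 and 0.206).

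The 6 short motifs were searched in the 250 bases before each tested first exon that had a RefSeq start within 50 bases. That was 2365 of 5513 first exons, 29 of the 87 that rose and 37 of the 79 that fell. A κB motif was found before 0 of the 29 and 3 of the 37 (8.1%), against 5.3% of all tested and 4.9% of the 32851 RefSeq promoters in the table. The interferon response core was found before 2 of the 29 (6.9%) and 4 of the 37 (10.8%), against 5.5% of all tested and 7.1% of the table. The TATA box was found before 6.9% and 8.1%, against 5.8% and 12.4%, and AP-1 before 3.4% and 0%, against 2.6% and 4.5%. CCAAT was found before 24.1% of those that rose and 37.8% of those that fell, against 36.1% of all tested, and the GC box before 58.6% and 51.4%, against 62.8%. These are small numbers of first exons, and the counts are a description.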

How the data were processed

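RNA-seq libraries of 18 samples were used. The authors deposited, for each library, FPKM values of transcript events of 20 kinds, per the file headers, with coordinates and a mouse gene number. The program that made them is not given in the sources used here. The submitters' processing notes list hg18, a human build, while the mouse gene numbers and coordinates matched GENCODE M21 on GRCm38, the build used here. FPKM is normalized for transcript length and for library size. Read counts were not analysed here, so the depth per library is unknown.

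First exons were matched across libraries by coordinates and strand, and those outside the span or off the strand of their gene were set aside. Genes with summed first-exon FPKM of at least 1 in all 18 libraries were kept, with first exons at a share of at least 0.1 in 3 libraries and at most 0.9 in 3. The log2 odds of the share, with 0.01 added to the share and to 1 minus the share, were tested with limma 3.58.1 (R 4.3.3), with all 6 groups in one fit, a trend of the variance on gene level, and p-values were adjusted by Benjamini-Hochberg over the 5513 first exons of each comparison. The threshold of 0.01 on the adjusted p is that of the study's methods. The scripts were tested on simulated data. The exact permutation test over 3 against 3 libraries cannot go below p = 0.1 and was not used. Tables were made with Python 3.11.15 and pandas 2.3.3.

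The members and gene lists were chosen with earlier results of these data known. Genes named are the 12 with the largest difference in share among called first exons whose 9 LPS and 9 mock libraries did not overlap (mean summed level of at least 5 FPKM), called genes or the 3 with the smallest p for each mutant comparison, genes of a list of alternative promoters, and called genes of Toll-like receptor and interferon lists. Other names are marked as chosen after their values were seen. Same-numbered libraries correlated between −0.076 and 0.042 in their deviations from the group means, so the numbers do not pair them.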

Additional observations from a re-analysis of the deposited data

How the results depend on the processing

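The count of 109 genes called for LPS over the 3 genotypes was 83 to 96 with 1 library left out, 68 with annotated first exons only, 166 with a pseudocount of 1 FPKM on each first exon in place of the offset on the share, and 191 at an adjusted p of 0.05. Of the 68, all were among the 109, and of the 166, 85 were. Under the other 15 alternatives of this comparison it stayed within 1.5 times. With starts within 100 bases merged it was 101, of which 96 were among the 109. Merging, annotated first exons only and a mean of at least 1 FPKM per first exon were chosen after seeing the data.

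The counts within a genotype moved more. For TLR4-WT the 17 genes became 8 with an offset of 0.05, 4 with a pseudocount of 1, 7 with the untransformed share, 8 with a row in all 18 libraries, 1 with annotated first exons only, 11 with the compared groups alone, 30 without a filter on the share, 27 with first exons wherever they lie and 71 at an adjusted p of 0.05. For TLR4-K730R they became 8 with an offset of 0.05, 11 with the untransformed share, 9 at a gene level of at least 5 FPKM, 5 with a row in all 18 libraries, 5 with annotated first exons only, 8 with the compared groups alone, 31 without a filter on the share, 38 with first exons wherever they lie and 52 at an adjusted p of 0.05. For TLR4-K810R they became 11 with a pseudocount of 1, 9 with a pseudocount of 0.1, 8 with a row in all 18 libraries, 11 with array weights, 7 with annotated first exons only, 6 with the compared groups alone, 33 without a filter on the share, 26 with first exons wherever they lie and 38 at an adjusted p of 0.05.

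With 1 library left out these counts were 8 to 16 in TLR4-WT, 8 to 13 in TLR4-K730R and 7 to 11 in TLR4-K810R. They moved by over 1.5 times without mock library 1 (8 genes), mock library 2 (9) or LPS library 2 (9) of TLR4-WT, without mock library 1 (11), LPS library 1 (9), LPS library 2 (8) or LPS library 3 (9) of TLR4-K730R, and without any 1 library of TLR4-K810R (11, 11 and 11 for mock and 8, 7 and 7 for LPS). The cause was not tested.

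The mutant comparisons rested on 0 to 2 genes. The 1 gene of mock-treated TLR4-K730R became 0 with a pseudocount of 1 or 0.1, at a gene level of at least 5 FPKM, with a row in all 18 libraries or with the compared groups alone, 2 without a minimum gene level and 4 without a filter on the share, and it was 0 to 1 with 1 library left out. The 2 genes of TLR4-K810R with LPS became 0 with an offset of 0.05, a pseudocount of 1 or 0.1, the untransformed share, a gene level of at least 5 FPKM, a row in all 18 libraries, merged starts, annotated first exons only or first exons of at least 1 FPKM on average, and 1 with array weights, and they were 0 to 3 with 1 library left out. With the compared groups alone 3 genes were called, but neither Ankrd28 (adjusted p of 0.0312) nor Zfp637 (0.0603, limma) was among them by its named first exon. The count was 1 without LPS library 2 of TLR4-WT and 0 without LPS library 1 or 3 of TLR4-K810R. Mock-treated TLR4-K810R gave 2 genes without a minimum gene level and 0 with any 1 library left out. TLR4-K730R with LPS gave 2 genes without a filter on the share or with first exons wherever they lie, and 0 to 1 with 1 library left out, where the 1 came without LPS library 2 of TLR4-K730R. The difference between LPS responses gave 2 genes for TLR4-K730R without a filter on the share and 1 with first exons wherever they lie, and 0 with any 1 library left out. For TLR4-K810R it gave 3 with an offset of 0.001, 1 without a minimum gene level, 2 without a filter on the share and 1 with first exons wherever they lie, and 0 to 1 with 1 library left out.

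With a block for the replicate number, 92 genes were called for LPS over the 3 genotypes and 1 gene, in place of 2, in LPS-treated TLR4-K810R cells. It changed no other count by over 1.5 times. Of the single first exons named, it took the call from Itpr2 (adjusted p of 0.0102), from Zfp637 in LPS-treated TLR4-K810R (0.0449), from Acot7 in TLR4-K730R (0.0145) and from Adck1 in TLR4-K810R (0.0225, limma).

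For the first exons named by the rule, for Syk, Ly6e and Spp1 and for 1 first exon of each of the 8 genes called in all genotypes, the values were recomputed and none reversed its direction. Of 1171 values under the other settings, 108 lost the threshold and 8 gained it, and of 810 with 1 library left out, 63 lost and 3 gained it. Mbnl1 was not called for LPS over the 3 genotypes with a pseudocount of 1 (adjusted p of 0.165, limma). Without read counts, the error that sequencing depth adds to a share cannot be separated from the spread between libraries.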
